A study of Homo sapiens with 6 samples.

Results

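The liver lineage transcription factors described here are HNF4A, FOXA1, FOXA2, FOXA3, GATA4, GATA6, ONECUT1 and CEBPA. They were found by gene symbol in the count table, where they made up 8 of 25445 rows. In MHCC-97H cells, 3 of the 8 were expressed, namely FOXA1, GATA6 and CEBPA. HNF4A was low, with a mean just under 1 CPM, and ONECUT1, FOXA3, GATA4 and FOXA2 were below the level needed for a test. None of the 4 members that could be tested was called changed after treatment with compound 6j, against 3.6% of all rows tested. In that test the 95% intervals of CEBPA, GATA6 and HNF4A included a change above 1.5-fold. ONECUT1 had a few counts in each library of non-treated cells and 0 counts in each library of 6j treated cells.

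These proteins bind DNA and set up the hepatocyte programme. FOXA and GATA factors are pioneer factors, which open the chromatin of liver genes in the foregut endoderm before those genes are transcribed. HNF4A, ONECUT1 and CEBPA then act on the promoters and enhancers of secreted proteins, apolipoproteins and metabolic enzymes, and the factors also bind one another's regulatory sequences.

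MHCC-97H is an established human hepatocellular carcinoma cell line. The 6j treated cells received 10 μM of 6j, a compound derived from sophoridine (a plant alkaloid), for 16 h, and the non-treated cells received solvent for the same time. Both groups had 3 libraries of oligo(dT) selected RNA, with replicate numbers 1 to 3, and both came from the same line, so they show 1 line and 1 time. The labels do not say whether replicates were separate cultures, so the p-values measure only the spread between these libraries, which may be technical. Changes in the make-up of the culture and in RNA per cell cannot be told apart in such bulk libraries.

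The libraries held 31533403 to 38018349 counts, and 3 counts corresponded to 0.0781 to 0.0952 CPM (the count scaled to the TMM normalised library size). The liver label was checked with 8 hepatocyte markers, none of which reached the level needed for a test. These 8 all encode secreted proteins, and hepatocyte enzymes were not among them. The enzymes CPS1, ASS1 and HPD were at 1611 ± 63.1, 157 ± 4.23 and 94.7 ± 14.9 CPM (SD, n = 3 each) in non-treated cells. They were the highest per kb of 32 hepatocyte enzymes and transporters, of which 21 could not be tested. TTR and AHSG were at 0 in every library, ALB had 8 counts in 1 library and 0 in the others, and the summed level of the 8 markers was 0.0796 to 0.222 CPM in non-treated and 0.212 to 0.64 CPM in 6j treated cells. The epithelial keratins were abundant, with KRT8 at 605 ± 77.2 CPM and KRT18 at 430 ± 36.3 CPM (SD, n = 3) in non-treated cells, whereas EPCAM was at 0 in every library. Of 8 biliary markers, 5 could be tested, including KRT7 at 472 ± 63.3 CPM (SD, n = 3), whereas SPP1 was at 0. KRT19 had 2, 0 and 13 counts in non-treated and 3, 0 and 0 in 6j treated cells, and CFTR had 5 counts in 1 library. The 8 biliary markers summed to 465 to 580 CPM in non-treated and 428 to 441 CPM in 6j treated cells. Most of this was KRT7, at 433 to 545 and 392 to 409 CPM. The 4 epithelial markers summed to 904 to 1109 CPM in non-treated and 705 to 823 CPM in 6j treated cells. KRT8 was lower in 6j treated cells, by −0.58 on the log2 scale (edgeR adjusted p = 0.0211, quasi-likelihood test), short of a 1.5-fold change. Markers of stellate cells and fibroblasts summed to 278 to 335 CPM in non-treated and 253 to 321 CPM in 6j treated cells. Most of this was COL1A1, at 215 to 275 and 203 to 272 CPM. LRAT was at 0 in every library, and DCN had 5, 2 and 7 counts in non-treated and 0 in 6j treated cells. Leukocyte markers summed to 39.8 to 70.5 and 41.8 to 52.1 CPM, all from CD68, since PTPRC, CD163, MARCO and CD3E were at 0. Endothelial markers stayed at or below 0.955 CPM, and those of gut and pancreas at or below 0.144 CPM, in every library. The identity of the line was not checked here beyond these markers, and the levels below are those of the libraries labelled MHCC-97H. The part of these markers in the results below was not tested.

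**Figure D1:**
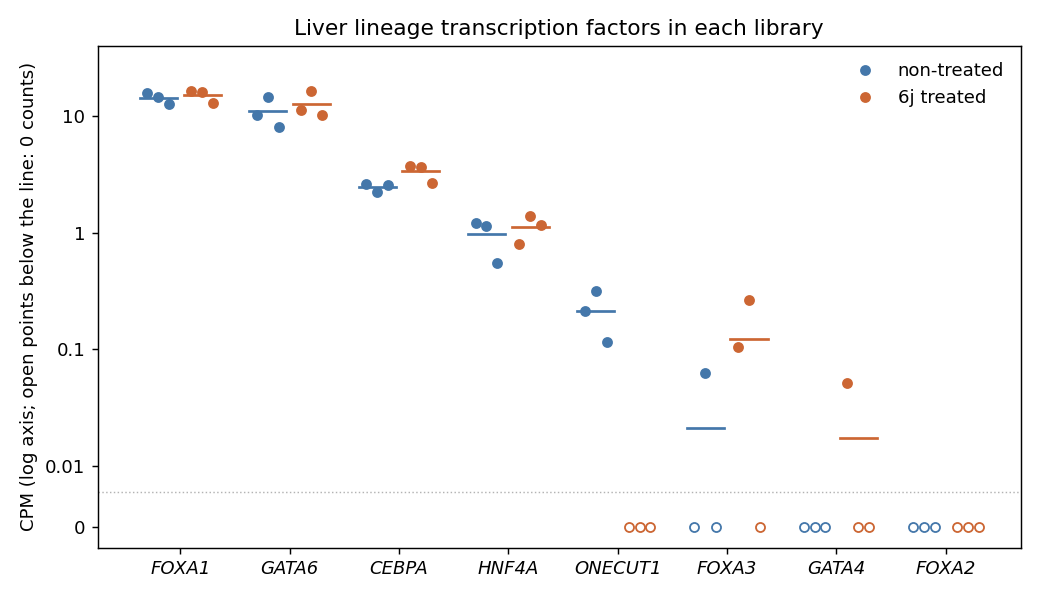
Level of each member in each library (CPM, log axis), with non-treated libraries in blue, 6j treated libraries in orange, and a bar at the mean of each group of 3. FOXA1 and GATA6 sit near 10 CPM in both groups, CEBPA and HNF4A lie lower, and ONECUT1 has points above 0 only in the 3 non-treated libraries. Open points below the dotted line stand for 0 counts.

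Levels of different genes were compared per length, as CPM per kb of exon, in non-treated cells. FOXA1 was at 3.6 ± 0.4 CPM per kb, GATA6 at 2.79 ± 0.841, CEBPA at 0.942 ± 0.0749, HNF4A at 0.133 ± 0.0505 and ONECUT1 at 0.0558 ± 0.0263 (SD, n = 3). The libraries of FOXA1 (3.17 to 3.97 CPM per kb) and GATA6 (2.05 to 3.71) overlapped, and neither was the higher in all 3 libraries, so these neighbours in the order did not differ beyond their spread. CEBPA (0.856 to 0.989 CPM per kb) lay below every library of GATA6 and above every library of HNF4A (0.0746 to 0.167). The range of ONECUT1 (0.0298 to 0.0824 CPM per kb) overlapped that of HNF4A, but within each of the 3 libraries HNF4A was the higher. Among the 13359 Ensembl genes tested, ranked from the highest level per kb over all 6 libraries, FOXA1 stood at 8286, GATA6 at 8857, CEBPA at 10694 and HNF4A at 12680. All 4 thus lay in the lower part of the expressed genes, and HNF4A lay below 94.9% of them.

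FOXA1 (ENSG00000129514, chromosome 14 from 37589984 to 37596059, minus strand, GRCh38) encodes a forkhead pioneer factor that loosens nucleosomes at enhancers of endodermal genes. Its libraries were at 15.8, 14.6 and 12.6 CPM in non-treated cells and at 16.5, 16.1 and 13 CPM in 6j treated cells. The groups overlapped, and replicate 3 was the lowest library of each. Non-treated cells averaged 14.4 ± 1.59 CPM and 6j treated cells 15.2 ± 1.95 CPM (SD, n = 3 each). The fitted log2 fold change was 0.08, with a standard error of 0.14 and an adjusted p of 0.77 in edgeR. Its 95% interval ran from 0.846 to 1.32-fold, which leaves out a 1.5-fold change in either direction. With the replicate block the interval was 0.9 to 1.24-fold (edgeR adjusted p = 0.632). FOXA1 shares exonic sequence with TTC6 on the other strand, and whether the counting used strand is not given in the sources used here. TTC6 was at 1.23 ± 0.122 and 1.26 ± 0.46 CPM (SD, n = 3 each), with a log2 fold change of 0.03 (edgeR adjusted p = 0.973).

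FOXA2 and FOXA3 encode the related forkhead factors, of which FOXA3 is the one that rises late in liver development. FOXA2 had 0 counts in all 6 libraries. It shares exons on its own strand with the gene model AL121722.1, which also had 0 counts throughout. FOXA3 had 0, 2 and 0 counts in non-treated cells and 4, 10 and 0 counts in 6j treated cells, so it was above 0 in 1 non-treated and 2 treated libraries. It did not pass the filter on low counts, and no difference was detectable at this depth. SYMPK, a gene for an RNA processing protein that starts 699 bp from FOXA3 on the other strand, was at 158 ± 3.57 and 142 ± 11.7 CPM (SD, n = 3 each) and was not called.

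GATA6 (ENSG00000141448, chromosome 18 from 22169443 to 22202528, plus strand) encodes a zinc finger factor of the early endoderm and liver bud. Its libraries were at 10.3, 14.6 and 8.1 CPM in non-treated and at 11.4, 16.5 and 10.2 CPM in 6j treated cells. Replicate 2 was the highest and replicate 3 the lowest library of each group, and the groups overlapped. Non-treated cells averaged 11 ± 3.32 CPM and 6j treated cells 12.7 ± 3.32 CPM (SD, n = 3 each). The fitted log2 fold change was 0.21, with a standard error of 0.25 and an adjusted p of 0.659 in edgeR, with a 95% interval from 0.778 to 1.71-fold. Each 6j treated library was above the non-treated library of the same number. Under the replicate block the log2 fold change was again 0.21, and the standard error was 0.12 in place of 0.25. The 95% interval with the block was 0.97 to 1.39-fold. GATA6 was not called in that fit either (adjusted p = 0.212). GATA4, whose protein acts beside GATA6 in the endoderm, had 0 counts in every non-treated library and 2, 0 and 0 counts in 6j treated cells.

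CEBPA (ENSG00000245848, chromosome 19 from 33299934 to 33302564, minus strand) encodes a leucine zipper factor that drives genes of energy metabolism and restrains proliferation of hepatocytes. Its libraries were at 2.6, 2.25 and 2.59 CPM in non-treated and at 3.75, 3.7 and 2.68 CPM in 6j treated cells. The groups did not overlap, but the lowest 6j treated library exceeded the highest non-treated library by little. The same separation of groups was found in 31.7% of all 15957 rows tested. Non-treated cells averaged 2.48 ± 0.197 CPM and 6j treated cells 3.38 ± 0.605 CPM (SD, n = 3 each). The fitted log2 fold change was 0.45, with a standard error of 0.24 and an adjusted p of 0.281 in edgeR, with a 95% interval from 0.936 to 1.98-fold. CEBPA had the largest fold change and the smallest adjusted p of the 4 members tested, and its interval includes both no change and a change above 1.5-fold. With the replicate block the adjusted p was 0.216.

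HNF4A (ENSG00000101076, chromosome 20 from 44355700 to 44434596, plus strand) encodes a nuclear receptor that keeps up most of the hepatocyte programme in the adult liver. It is transcribed from an upstream promoter, P2, and from a downstream promoter, P1, which is the main one in adult hepatocytes. The counts are per gene and do not tell the promoters apart. There were 46, 36 and 19 counts in non-treated cells and 31, 53 and 40 counts in 6j treated cells, which is 1.22, 1.14 and 0.546 CPM against 0.807, 1.4 and 1.16 CPM. The groups overlapped throughout, and the lowest library was non-treated replicate 3. Non-treated cells averaged 0.969 ± 0.369 CPM and 6j treated cells 1.12 ± 0.3 CPM (SD, n = 3 each). The fitted log2 fold change was 0.21, with a standard error of 0.42 and an adjusted p of 0.798 in edgeR. At this depth the 95% interval ran from 0.601 to 2.23-fold, which includes a 1.5-fold change in either direction. With the replicate block the interval was 0.621 to 2.26-fold (edgeR adjusted p = 0.726). R3HDML, 4465 bp upstream of HNF4A, had 0 counts in all libraries.

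ONECUT1 (ENSG00000169856, chromosome 15 from 52756989 to 52791078, minus strand) encodes hepatocyte nuclear factor 6, a cut homeodomain factor of liver and bile duct development. It had 8, 10 and 4 counts in non-treated cells and 0 counts in each library of 6j treated cells. The groups did not overlap, as in 31.7% of the 15957 rows tested, which do not include ONECUT1. How often rows as low as ONECUT1 separate in this way was not counted. Non-treated cells averaged 0.215 ± 0.101 CPM (SD, n = 3), from 22 counts in all. Taking 3 counts per library as the floor, a mean of 0.0816 CPM over the treated libraries, the non-treated mean was 2.63-fold above that floor. This ratio leaves out the error of the non-treated mean, whose lowest library had 4 counts, so it does not bound the change. ONECUT1 did not pass the filter on low counts and so was not part of the test. Fitted without the filter, it had an unadjusted p of 0.0139 and an adjusted p of 0.115 in edgeR, and adjusted p = 0.167 with the replicate block. DESeq2 without a filter gave an unadjusted p of 0.00519 and no adjusted p. ONECUT1 was not called in either edgeR fit, and without an adjusted p it could not be called in DESeq2.

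Across the members, 0 of the 4 tested were called (adjusted p under 0.05 together with more than a 1.5-fold change), against 3.6% of all rows tested (574 of 15957), 2.48% called higher and 1.12% called lower. At an unadjusted p under 0.05 the count was also 0 of 4, against 26.2% of all rows, and DESeq2 called 0 of 4 as well, against 5.11%. The replicate block left the members at 0 of 4, against 6.47% of all rows, and the fit without a filter called none of the 7 members it held, against 2.71%. All 4 log2 fold changes were positive, with a median of 0.21 beside a median of 0.00 over all rows tested. The sign of 3 of the 4 turned with 1 library left out, to −0.07 for HNF4A and −0.0018 for FOXA1 without non-treated replicate 3 and to −0.03 for GATA6 without 6j treated replicate 2. Over the 6 libraries, the log2 CPM of HNF4A went most closely with that of APOM, an apolipoprotein gene, among 53 tested genes of the lists used here (Pearson r = 0.93, no test). For FOXA1 the closest was TBX3 (r = 0.91) and for GATA6 it was RXRA, the partner of many nuclear receptors (r = 0.86). Between members r ran from 0.08 for HNF4A with CEBPA to 0.72 for HNF4A with GATA6. These correlations share the libraries and their depth, and libraries of the same number deviated together.

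Because these factors are known to bind one another's promoters, the 250 bases before each transcription start in RefSeq (GRCh38.p14) were searched on both strands for short motifs of the factors. Windows were found for 6 of the 8 members, with 2 for HNF4A. The motifs, each with its share of all 35116 windows of the same length, were TGTTTAC for FOXA (2.98%), AGATAA for GATA (9.17%), CAAAGT for HNF4 (10.3%), ATCAAT for ONECUT (5.58%), TTGCNNAA for C/EBP (9.05%) and the TATA box TATAAA (10.7%). The windows of HNF4A and FOXA1 are shown, since they held letters of other members' motifs. The P2 window of HNF4A (chr20:44355449-44355698, plus strand) held an ONECUT motif 33 bases and a GATA motif 26 bases before the start. The P1 window of HNF4A (chr20:44400989-44401238, plus strand) held an ONECUT motif 200 bases before the start. The FOXA1 window (chr14:37595250-37595499, minus strand) held an HNF4 motif 230 bases before the start. Capitals mark these matches in the sequences, written 5′ to 3′.
HNF4A P2: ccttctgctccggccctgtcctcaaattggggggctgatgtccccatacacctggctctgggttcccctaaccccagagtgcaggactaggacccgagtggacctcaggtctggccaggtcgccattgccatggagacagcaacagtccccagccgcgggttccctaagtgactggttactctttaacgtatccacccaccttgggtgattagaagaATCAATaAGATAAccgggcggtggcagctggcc
HNF4A P1: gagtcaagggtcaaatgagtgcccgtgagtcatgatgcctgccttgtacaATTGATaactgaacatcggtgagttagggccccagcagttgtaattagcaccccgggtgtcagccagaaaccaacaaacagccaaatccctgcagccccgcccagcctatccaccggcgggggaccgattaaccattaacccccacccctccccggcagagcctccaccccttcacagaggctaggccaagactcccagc
FOXA1: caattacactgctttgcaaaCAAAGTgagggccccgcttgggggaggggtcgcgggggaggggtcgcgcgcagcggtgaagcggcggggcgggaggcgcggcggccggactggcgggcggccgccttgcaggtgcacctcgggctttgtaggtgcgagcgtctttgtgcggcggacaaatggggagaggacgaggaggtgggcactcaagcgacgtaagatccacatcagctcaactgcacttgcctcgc
Of the other windows, those of CEBPA and FOXA3 held a TATA box 30 bases before the start, and those of ONECUT1 and GATA6 held none of the 6 motifs. GC content was 58.4% and 58% in the P2 and P1 windows of HNF4A, beside a median of 58% over all windows, and rose to 81.2% in that of CEBPA, above 97.7% of windows. A match describes letters only, and no binding was measured here.

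For each family, the members were then set beside their paralogs. FOXA1 made up 99.7 ± 0.451% of the summed FOXA level per kb in non-treated cells (SD, n = 3) and 98.7 ± 1.46% in 6j treated cells. In the ONECUT family, ONECUT2 made up 99.5 ± 0.132% and ONECUT1 0.413 ± 0.192% (SD, n = 3) before treatment. ONECUT2 was at 210, 222 and 224 CPM in non-treated and 278, 359 and 342 CPM in 6j treated cells, without overlap, as in 31.7% of all rows tested. Its fitted log2 fold change was 0.58, with a standard error of 0.10 and an adjusted p of 0.0131 in edgeR, just short of the 1.5-fold threshold. In 3 of the 6 fits that left out 1 library its fold change was above 1.5 and it was called (adjusted p = 0.0405 without non-treated replicate 2, 0.0424 without non-treated replicate 3 and 0.00626 without 6j treated replicate 1). HNF4G, the paralog of HNF4A, made up 79 ± 5.66% of the HNF4 level per kb (SD, n = 3) and HNF4A 21 ± 5.66%. HNF4G was at 2.33 ± 0.377 CPM in non-treated and 2.55 ± 1.59 CPM in 6j treated cells (SD, n = 3 each), and was not called.

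The GATA level was summed over GATA2, GATA3, GATA4, GATA5 and GATA6, and GATA1 was not analysed here. Of these 5, GATA2, a factor best known from blood and endothelial cells, was the most abundant with 116, 104 and 111 CPM in non-treated cells. It fell to 64.3, 42.5 and 58.4 CPM in 6j treated cells (log2 fold change −1.00, standard error 0.14, edgeR adjusted p = 0.00762). All 3 treated libraries were below all non-treated ones, and GATA2 remained called with any 1 library left out. Groups were apart, in either direction, in 31.7% of all rows tested. The share of GATA6 in the summed GATA level per kb was 10 ± 3.07% in non-treated and 20.9 ± 7.88% in 6j treated cells (SD, n = 3 each), while its own CPM overlapped between groups. The log2 CPM of GATA6 minus that of GATA2 was −3.36 in non-treated and −2.12 in 6j treated cells, a difference of 1.24. An exact permutation test gave p = 0.1 two-sided (adjusted p = 0.15 over 3 such comparisons), the smallest p that 3 against 3 libraries allow. This pair and the next ones were chosen after the values had been seen, which the adjusted p does not cover. The permutation test also ignored the replicate numbers.

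The C/EBP level was summed over CEBPA, CEBPB, CEBPD, CEBPE and CEBPG. It left out DDIT3, at 16.1 CPM per kb in non-treated and 77.5 in 6j treated cells, and shares with DDIT3 included were not computed. CEBPA made up 2.38 ± 0.369% of this C/EBP level per kb in non-treated and 2.19 ± 0.33% in 6j treated cells (SD, n = 3 each). CEBPB, a factor of the acute phase response, had the largest share before treatment, 49.4 ± 2.3% (SD, n = 3). CEBPG, a partner of ATF4 in the response to amino acid and ER stress, rose from 50, 52.6 and 42.5 CPM to 112, 142 and 119 CPM (log2 fold change 1.36, standard error 0.12, edgeR adjusted p = 0.000849). Its share of the C/EBP level without DDIT3 went from 27.4 ± 1.02% to 48.1 ± 2.53% (SD, n = 3 each). CEBPA minus CEBPG was −4.25 on the log2 scale in non-treated and −5.19 in 6j treated cells (difference −0.93, exact permutation test p = 0.1, adjusted p = 0.15). HNF4A minus HNF4G was −1.28 and −1.01 (difference 0.27, exact permutation test p = 0.7, adjusted p = 0.7).

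**Figure D2:**
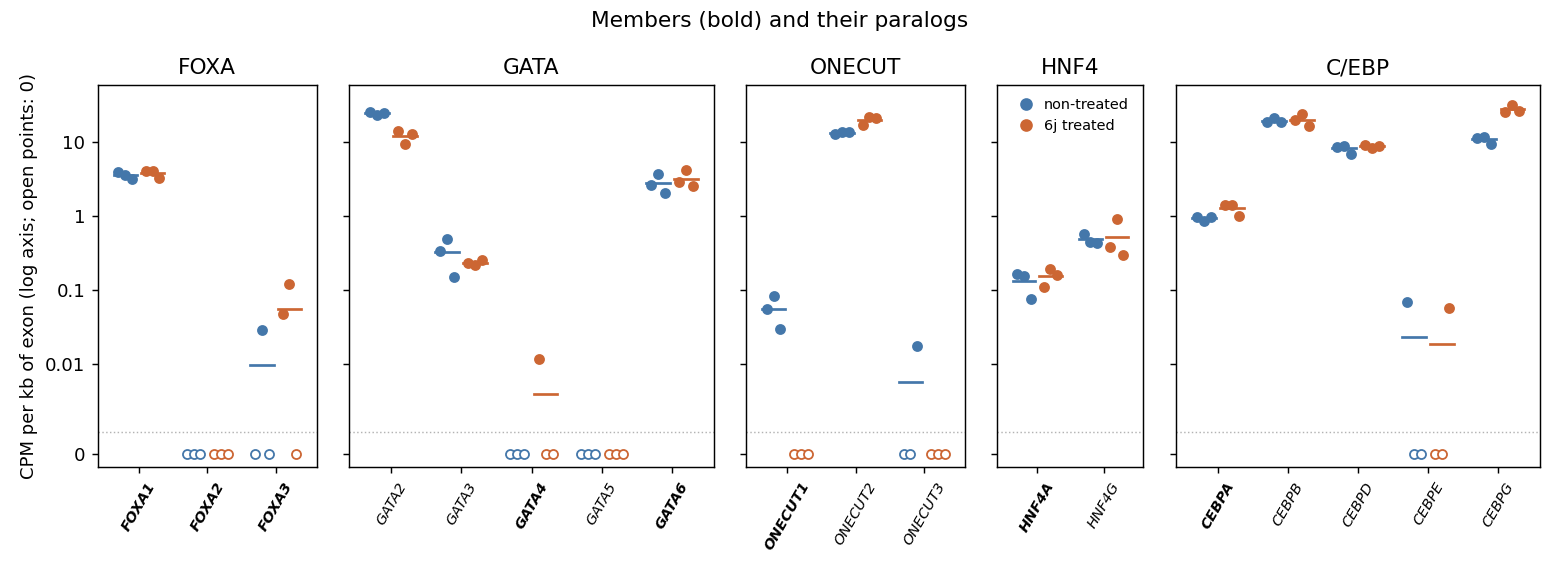
Level per kb of exon (CPM per kb, log axis) of each member (bold) and its paralogs in each library, with blue for non-treated, orange for 6j treated, bars at group means and open points for 0. FOXA1, GATA6 and HNF4A overlap between the groups, and CEBPA, not called, is somewhat higher in all 3 treated libraries. GATA2 is lower and CEBPG higher in all 3 treated libraries.

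The other transcription factors of the hepatic programme were read from the same fit. Beside the counts of this list and those below, 2.48% of all 15957 rows tested were called higher and 1.12% lower. The median log2 fold change over all rows tested was 0.00. Of 13 other developmental factors of liver and foregut, 9 could be tested, 0 rose, 1 fell (GATA2) and 8 were not called, with a median log2 fold change of 0.01. PROX1, a homeodomain factor of early hepatoblasts, and GATA5 had 0 counts in every library. TBX3, GATA2 and ONECUT2 had the highest levels per kb of this list. TBX3, a repressor that promotes growth of the liver bud, was at 140 ± 19.5 and 140 ± 19.9 CPM (SD, n = 3 each; log2 fold change 0.01).

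Of 13 nuclear receptors and coregulators of hepatocytes, 10 could be tested, 2 rose, 0 fell and 8 were not called, with a median log2 fold change of 0.06. PPARA, the receptor that turns on fatty acid oxidation, rose from 23.1 ± 3.92 to 39.5 ± 5.68 CPM (SD, n = 3 each; log2 fold change 0.77, standard error 0.15, edgeR adjusted p = 0.0181). It was not called without non-treated replicate 1, non-treated replicate 2 or 6j treated replicate 2 (adjusted p = 0.0811, 0.0569 and 0.0964). PPARGC1A, its coactivator in fasting, rose from 26.7 ± 4.49 to 47.8 ± 12.7 CPM (SD, n = 3 each; log2 fold change 0.84, standard error 0.20, edgeR adjusted p = 0.0374). Its call was lost without non-treated replicate 1, non-treated replicate 3, 6j treated replicate 2 or 6j treated replicate 3 (adjusted p = 0.149, 0.107, 0.0968 and 0.0604). NR2F6, ESRRA and NR2F1 had the highest levels per kb, at 28.8, 19.8 and 20.5 CPM per kb in non-treated cells, and were not called. With the replicate block NR2F1 had a log2 fold change of −0.25 (edgeR adjusted p = 0.0269), short of a 1.5-fold change. NR2F6, an orphan receptor, was lower in 6j treated cells, by −0.51 on the log2 scale (edgeR adjusted p = 0.0118), short of a 1.5-fold change. NR1I2, the xenobiotic receptor PXR, had 0 counts in every library.

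Of 11 C/EBP and PAR bZIP factors, 9 could be tested, 3 rose, 0 fell and 6 were not called, with a median log2 fold change of 0.18. Besides CEBPG these were DDIT3 and NFIL3. The highest of the list per kb were CEBPB at 19.7, DDIT3 at 16.1 and NFIL3 at 14.1 CPM per kb in non-treated cells, and DDIT3 at 77.5, CEBPG at 28.2 and NFIL3 at 25.5 CPM per kb in 6j treated cells. DDIT3, the stress factor CHOP, which pairs with other C/EBP proteins, rose from 21 ± 4.07 to 101 ± 14.7 CPM (SD, n = 3 each; log2 fold change 2.27, edgeR adjusted p = 0.000575). NFIL3, a repressor that competes with PAR bZIP factors, rose from 29.3 ± 4.88 to 53.1 ± 7.69 CPM (SD, n = 3 each; log2 fold change 0.86, edgeR adjusted p = 0.0119). Its call was lost without non-treated replicate 1 or 6j treated replicate 2 (adjusted p = 0.0642 and 0.0646). CEBPB was at 38.6 ± 3.15 and 39.7 ± 7.42 CPM (SD, n = 3 each) and was not called.

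**Figure D3:**
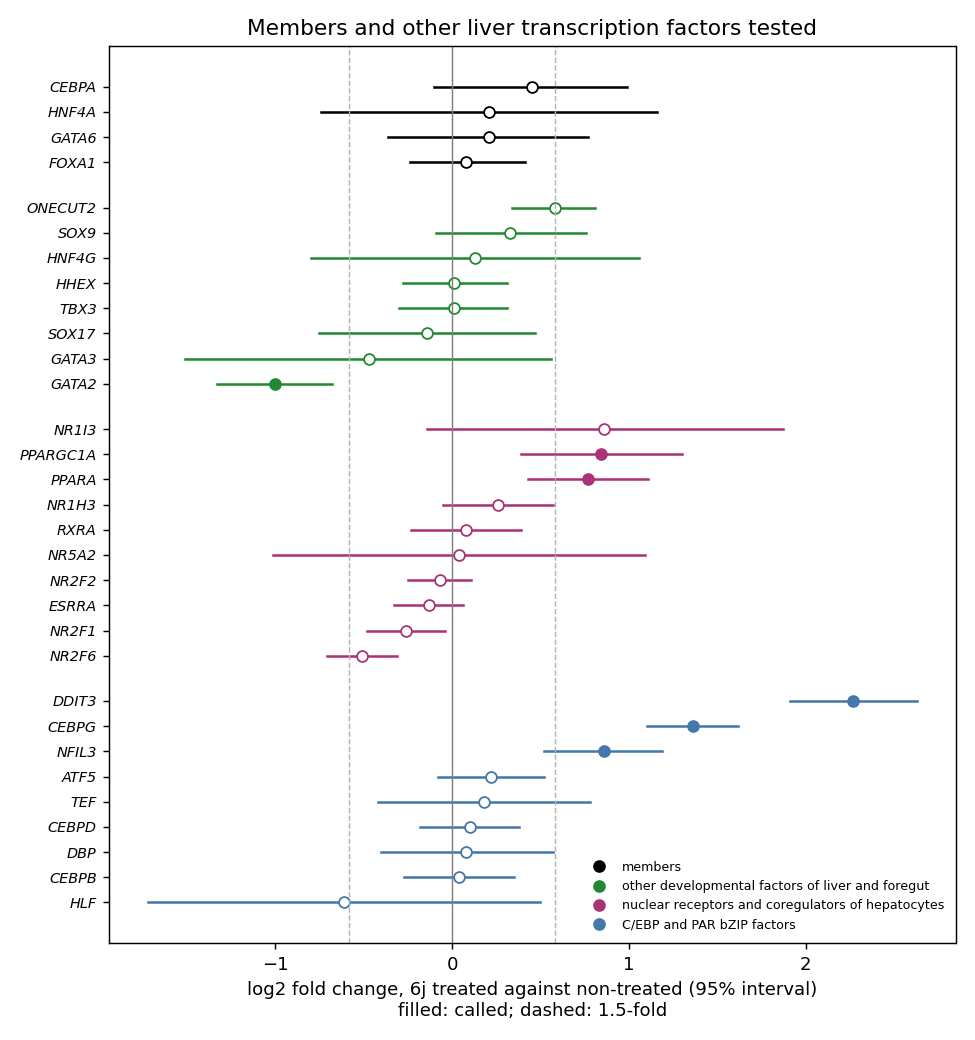
Log2 fold change of 6j treated against non-treated cells (points) with 95% intervals (lines) for the 4 members tested and other factors tested, filled where called, with dashed lines at 1.5-fold. The 4 members, in black at the top, have open points and intervals that include 0, with FOXA1 the narrowest and HNF4A the widest.

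The genes that these factors are known to act on were taken as a last view of the programme. Of 32 secreted hepatocyte proteins, 5 could be tested, 0 were called by edgeR, 1 had an unadjusted p under 0.05 and was called by DESeq2 (C3), and 23 had fewer than 10 counts in every library. TTR, APOH, F9, AHSG, HP, KNG1 and PLG were at 0 in all libraries. The highest per kb in non-treated cells were VTN at 5, C3 at 4.03 and APOM at 0.872 CPM per kb, where FOXA1 stood at 3.6. C3, the central complement protein, was at 38.1, 31.6 and 31.1 CPM in non-treated and 28.5, 16.8 and 20.6 CPM in 6j treated cells (log2 fold change −0.61, edgeR adjusted p = 0.0756). Its groups did not overlap, as in 31.7% of all rows tested. With the replicate block C3 was called lower (log2 fold change −0.64, adjusted p = 0.00111), as it was without 6j treated replicate 1 (adjusted p = 0.015). VTN, which encodes vitronectin, had a log2 fold change of −0.44 (edgeR adjusted p = 0.197) and was called only without 6j treated replicate 1 (adjusted p = 0.044). With the replicate block the adjusted p of VTN was 0.0238 in edgeR, short of a 1.5-fold change. The median of the 5 was −0.44.

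Of 32 hepatocyte enzymes and transporters, 11 could be tested, 1 rose, 1 fell and 9 were not called, with a median log2 fold change of −0.22. CPS1, ASS1 and HPD had the highest levels per kb, and those at 0 in all libraries included OTC, G6PC, ADH1A, ADH4 and ASGR2. CPS1, the first enzyme of the urea cycle, was at 1611 ± 63.1 and 1381 ± 57.7 CPM (SD, n = 3 each), or 150 CPM per kb in non-treated cells, and was not called (log2 fold change −0.22, edgeR adjusted p = 0.145). The adjusted p of CPS1 was 0.00659 in edgeR with the replicate block and 0.0373 in DESeq2, at the same log2 fold change, short of a 1.5-fold change. ASS1, the urea cycle enzyme that joins citrulline and aspartate, rose from 157, 152 and 161 CPM to 397, 408 and 409 CPM (log2 fold change 1.37, standard error 0.07, edgeR adjusted p = 0.000215). HPD, an enzyme of tyrosine breakdown, fell from 94.7 ± 14.9 to 57.9 ± 12.8 CPM (SD, n = 3 each; log2 fold change −0.71, edgeR adjusted p = 0.0417). HPD was not called without non-treated replicate 1, non-treated replicate 3, 6j treated replicate 2 or 6j treated replicate 3 (adjusted p = 0.143, 0.114, 0.154 and 0.109). CYP3A4, the main drug-oxidising cytochrome P450, was named after its values had been seen because it was called only with the replicate block. It went from 0.281 ± 0.224 to 0.916 ± 0.67 CPM (SD, n = 3 each), with adjusted p = 0.168 without and 0.0341 with the block in edgeR.

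Of 11 fetal liver and progenitor genes, 6 could be tested and 0 were called by edgeR, with a median log2 fold change of 0.11. In this list 1 gene, CD24, had an unadjusted p under 0.05, and DESeq2 called 0. With the replicate block CD24 had a log2 fold change of −0.45 (edgeR adjusted p = 0.00208), short of a 1.5-fold change. CD24, a cell surface protein of progenitors, was the highest per kb, at 19.7 CPM per kb in non-treated cells, followed by the RNA binding proteins IGF2BP3 at 8.8 and IGF2BP1 at 7.98. GPC3, the proteoglycan used as a marker of hepatocellular carcinoma, and EPCAM were at 0 in every library. AFP, the fetal counterpart of albumin and 1 of the secreted proteins above, was named after its values had been seen and had 0 counts in non-treated cells and 7, 0 and 2 counts in 6j treated cells.

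**Figure D4:**
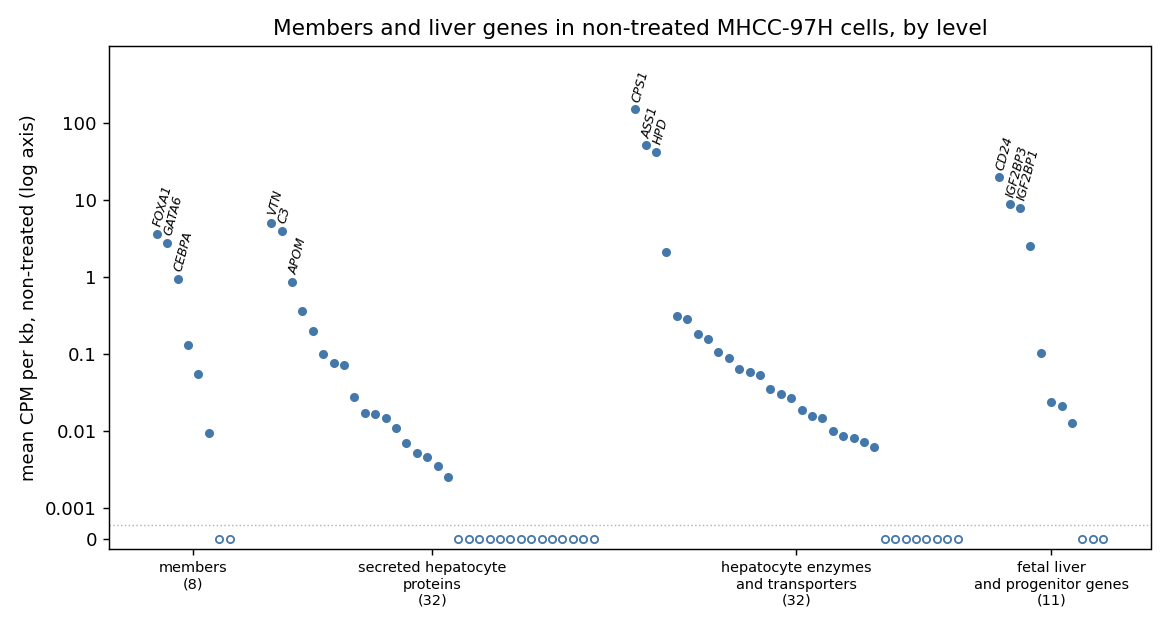
Mean level in non-treated cells (CPM per kb of exon, log axis; 3 libraries) of each member and of each gene of the 3 lists of liver genes, ordered from high to low within a list, with open points for genes at 0. CPS1, ASS1 and HPD lie above every member, whereas most of the secreted proteins lie below CEBPA or at 0.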

How the data were processed

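RNA of 6 libraries was sequenced, and the counts per gene that the authors deposited are whole numbers without normalization. The submitters' processing notes name HISAT2, StringTie and GRCh38, while the counting program and annotation are not given in the sources used here. Values of 1 (142 to 175 rows per library) were rarer than values of 2 (557 to 692), so the counts may hold rounded estimates. GENCODE version 29 held all 19974 Ensembl identifiers, and its union exon lengths gave the CPM per kb, and 5471 rows were new genes of the authors' assembly.

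From the counts, edgeR 4.0.16 (R 4.3.3) computed TMM factors and robust quasi-likelihood tests on the 15957 of 25445 rows kept by filterByExpr (minimum count 10, minimum total 15), with a prior count of 2 for log2 CPM. A gene was called when its p, adjusted by Benjamini-Hochberg, was under 0.05 and its fold change above 1.5. A member was taken as expressed when it passed the filter with a mean of at least 1 CPM in non-treated cells. Promoter sequences are from RefSeq. Floors cover counting error only.

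The groups share replicate numbers in the labels, which do not say what a number marks. Libraries of the same number deviated from their group means together (correlations of 0.171, 0.18 and 0.312, against −0.231 to 0.0795 for different numbers). A fit that took the numbers as pairing the libraries, the replicate block, was therefore run as an alternative. The main fit did not use the numbers, and values given without mention of the block do not allow for pairing.

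The members and gene lists were chosen with earlier results of these data known. Named genes were the members, the called genes of each list, the 3 highest genes of each list per kb, genes within 5 kb of a member, and the gene most like a member. LINC00261, HNF4A-AS1, GATA6-AS1, CEBPA-DT and H19 were not analysed here. Some genes of the lists are counted but not reported here by name. IGF2 had 2 rows, of which the 1 with counts was used. Alternatives were DESeq2 1.42.0, its size factors, no filter, the replicate block, Ensembl genes only, other thresholds and leaving out each library. DESeq2 and the block without a filter were chosen after seeing the data.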

Additional observations from a re-analysis of the deposited data

How the results depend on the processing

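No member was called under any of the 15 alternatives. In DESeq2 without a filter ONECUT1 had no adjusted p and could not be called. Leaving out each library in turn gave log2 fold changes of −0.07 to 0.42 for HNF4A, −0.0018 to 0.18 for FOXA1, −0.03 to 0.46 for GATA6 and 0.36 to 0.59 for CEBPA. The sign turned for HNF4A and FOXA1 without non-treated replicate 3 and for GATA6 without 6j treated replicate 2. Over all alternatives the adjusted p was 0.621 to 0.986 for HNF4A, 0.489 to 0.996 for FOXA1, 0.212 to 0.967 for GATA6 and 0.191 to 0.516 for CEBPA. The ONECUT1 difference ran from −0.265 to −0.164 CPM with 1 library left out. At this depth, 4 of the 8 members had too few counts to be tested. With the replicate block, 1033 of all rows were called in place of 574, and 1043 without a filter. Among the genes named, the block added the calls of C3 (1 secreted protein in place of 0, as also with DESeq2 with or without a filter, the block without a filter, and an unadjusted p) and CYP3A4, and ended none. Over all rows, 1462 passed the adjusted p alone and 1136 an unadjusted p with the fold change, and leaving out 1 library gave 186 (without non-treated replicate 1) to 772, with 193 without 6j treated replicate 2 and 379 without non-treated replicate 3. Other developmental factors had 2 calls with Ensembl genes only or with adjusted p alone, and 1 to 2 with 1 library left out. Nuclear receptors had 1 call without the filter and 0 to 2 with 1 library left out. Hepatocyte enzymes had 1 call without the filter and 1 to 2 with 1 library left out, and secreted proteins 0 to 2. C/EBP and PAR bZIP factors had 2 to 3 calls and fetal genes 0. Fits that left out 1 library assume that the remaining libraries vary alike. The cause of these changes was not tested.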
